A study of Mus musculus with 16 samples.

Results

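Ung, Apex1, Apex2, Msh6 and Exo1 encode repair enzymes that act on the uracils that arise in antibody genes during class switching. The 5 genes were taken by symbol, as all spots that are not controls and carry one of these names; each has 1 spot on the array, so 5 of the 34797 gene names on the array were followed, by 1 probe each. The cells were B cells of the spleen of AM14 mice, and their RNA was hybridised to 16 Agilent arrays of 2 colours. Every group carries AM14, and the genotypes were WT, Tlr7-/-, Tlr9-/- and Tlr7/9-/- (double knockout). Unstimulated cells (0 h) and cells given PL2-3 for 6, 24 or 42 h were compared, with 1 array for each genotype and time. Cy5 marked the sample and Cy3 a common reference, pooled from the unstimulated cells of the 4 genotypes; no dyes were swapped. No array held cells kept without PL2-3 beyond 0 h, so an effect of the agent and one of time in culture cannot be told apart. Nor do the labels say how old the mice were, which PL2-3 dose was used or whether animals were pooled.

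In class switching and somatic hypermutation, cytosine is turned into uracil in the switch regions and variable regions of antibody genes. UNG, the uracil DNA glycosylase, removes the uracil, and the AP endonucleases APEX1 and APEX2 cut the strand at the base-free site that is left. MSH6 binds the mismatch of uracil with guanine, and the exonuclease EXO1 resects the strand from a nick. MSH6 and EXO1 also serve ordinary mismatch repair behind the replication fork, and APEX1 is the main AP endonuclease of base excision repair in most cells.

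The sequences of the probes are shown first because the reading of Ung turns on its probe. Bases 17 to 46 of the 60-base Ung probe (chr5:114588731-114588790, mm9, plus strand) are given with its GT repeat in capitals; the repeat runs on for 34 bases to the end of the probe.
Ung probe: agatttcaaaGTGTGTGTGTGTGTGTGTGT
Apex1 probe (chr14:51546483-51546542, plus strand): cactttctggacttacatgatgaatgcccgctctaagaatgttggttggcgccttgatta
Msh6 probe, bases 31 to 60 (chr17:88390143-88390202, plus strand): gaaaaaggtggtaaattcagacaacattat
Exo1 probe, bases 31 to 60 (chr1:177838682-177838741, plus strand): tacaagaaaatcttatcaactggagagatg
The coordinates are those of the whole probes, and the Apex2 probe is not shown. In the 4 probes other than that of Ung no GT or CA unit is repeated in tandem, the longest run of either being 2 bases. The Apex1 and Apex2 probes each have 1 reading frame with no stop codon.

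The arrays had 37.4 to 62.7% of spots well above background in Cy5. The lowest share was that of Tlr9-/- at 0 h, which also had the most outlier-flagged spots (550). Each change of Tlr9-/- from 0 h rests on that array. All 5 probes were well above background in Cy5 on 16 of 16 arrays and none was saturated. In Cy3 Apex2 was well above background on 15 arrays, the exception being the array labelled Tlr9-/- at 0 h, and the others on 16. Apex2 was the dimmest of the 5, at 4.28 to 10.1 times the local background in Cy5. Exo1 was about as dim at 0 h, at 4.55 to 5.71 times. Of the 2 Tlr7 probes well above background in both colours on 16 arrays, the one with the wider range lay between -1.23 and 0.6 (log2 Cy5/Cy3) on the Tlr7-/- and double knockout arrays and between -0.05 and 1.87 on the others. The Tlr9 probe stood at -0.08 in WT and 0.04 in Tlr9-/- at 0 h. At 6, 24 and 42 h it was at -0.05, -0.84 and -0.57 in WT. The arrays labelled Tlr9-/- had -0.31, -1.14 and -0.37 at these times. The probe was thus lower there than in WT at 6 and 24 h but not at 0 and 42 h. No label says whether it lies in the deleted part, so it does not check that label. WT and Tlr7-/- were on slide 1, and Tlr9-/- and the double knockout on slide 2, so loss of Tlr9 and slide cannot be told apart. The 6 B cell markers were well above background on all arrays. Markers of other cells were above it too, with 4 to 6 of 6 for T cells, 4 to 6 of 6 for myeloid cells, 2 to 4 of 4 for NK cells and 3 to 4 of 4 for red cells. In bulk RNA, fewer cells of a type and less RNA per cell cannot be told apart.

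Levels below are log2 ratios of Cy5 to Cy3, and differences are between such ratios. The change with time was fitted with limma over the 12 arrays of WT, Tlr7-/- and Tlr9-/-, with genotype as a term. The genotypes stand in for replicates, so the errors measure the spread between genotypes, and a probe is called where its Benjamini-Hochberg adjusted p over all probes is under 0.05. Exo1 and Apex1 rose by 6 h, and Exo1, Apex1 and Msh6 were higher at 24 and 42 h, while the Ung probe was lower at both. Of the 5 genes, 2 were called at 6 h, where 45.3% of all probes tested were. At 24 h 4 were called, against 46.5% of probes, and at 42 h 4, against 35% of probes. From 6 to 24 h 4 were called against 30.5%, and the Ung probe is among the 4 at 24 h, at 42 h and in this step. The call of the Ung probe in that step was lost without WT, at -0.86 with a limma adjusted p of 0.0511. From 24 to 42 h 0 were called, against 5.07%. In that last step 2 of the 5 had an unadjusted p under 0.05, as did 21.7% of all probes. The cell type markers fell in the same comparisons. At 24 h all 6 B cell markers were called lower (median -2.64), as were 4 of 4 of red cells (-3.65), 6 of 6 of myeloid cells (-1.64), 4 of 4 of NK cells (-1.36) and 3 of 6 of T cells (-0.39). At 6 and 42 h all 6 B cell markers were lower too (median -2.62 and -2.06). The part of these shifts in the results was not tested. Loess holds the typical probe of each brightness at no change. With arrays centred on their median in its place, the median of all probes moved to 0.22 at 6 h and 0.20 at 24 h, and the share of called probes that were higher from 51.2 to 76.5% and from 47.4 to 75.7%. At 42 h that share went from 45.7 to 57.1%, and from 24 to 42 h from 34 to 1.06%.

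**Figure D1:**
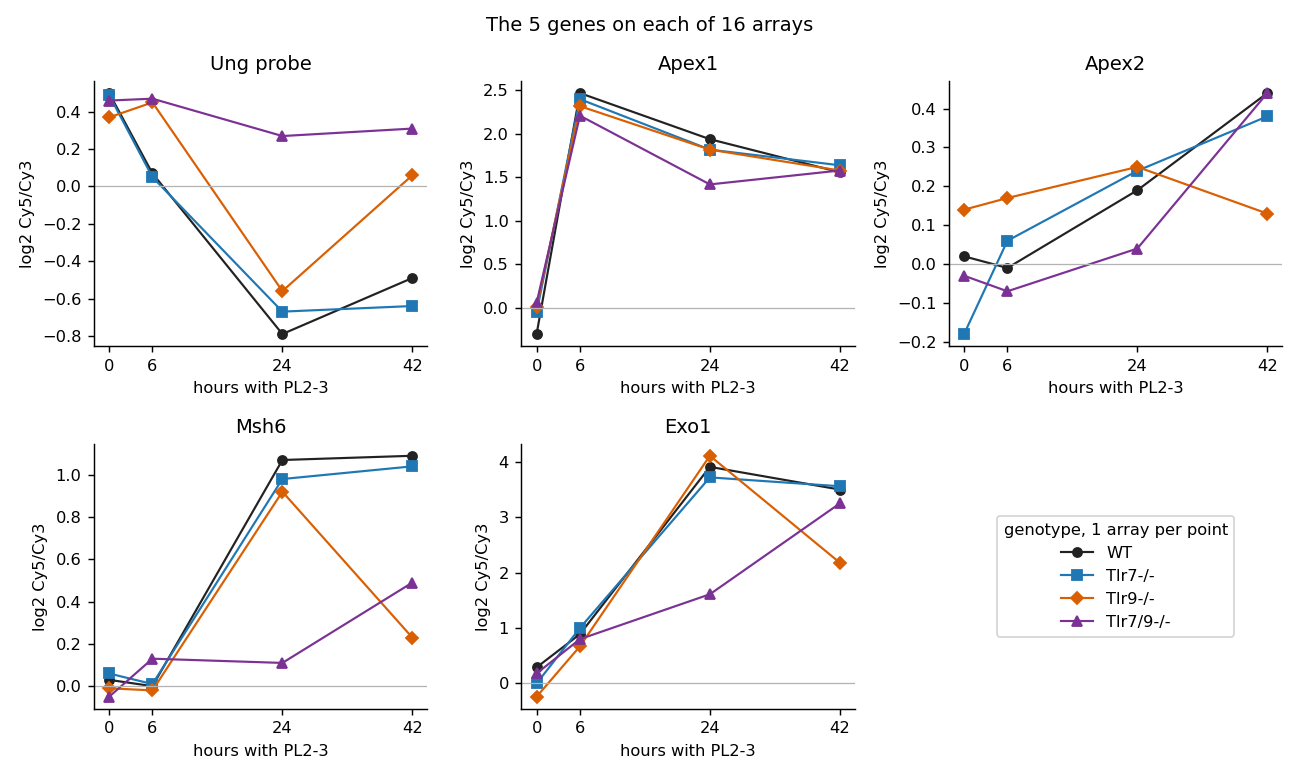
Log2 Cy5/Cy3 (vertical axes, with a scale of their own in each panel) of the 5 genes against hours with PL2-3; each point is 1 array and each line 1 genotype. Apex1 is highest at 6 h in all genotypes, and Exo1 lies between 3.72 and 4.11 at 24 h in WT, Tlr7-/- and Tlr9-/- but at 1.61 in the double knockout.

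The Ung probe stood at 0.50, 0.07, -0.79 and -0.49 in WT at 0, 6, 24 and 42 h. In Tlr7-/- it stood at 0.49, 0.05, -0.67 and -0.64, and in Tlr9-/- at 0.37, 0.45, -0.56 and 0.06. In the double knockout it was 0.46, 0.47, 0.27 and 0.31, so that the 24 h arrays of the other 3 genotypes all lay below every double knockout array. Against 0 h the probe was 0.27 ± 0.14 (log2, SE) lower at 6 h, which was not called (limma adjusted p = 0.169). It fell by 1.13 ± 0.14 at 24 h (adjusted p = 0.000169) and by 0.81 ± 0.14 at 42 h (adjusted p = 0.00194). The call at 42 h was lost with median centring (-0.35, adjusted p = 0.191), without WT (-0.72, adjusted p = 0.0586) and without Tlr7-/- (-0.65, adjusted p = 0.0605).

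These values cannot be read as Ung transcript alone, as a comparison added after they had been seen showed. Another 48 probes on the array hold 10 or more TG units in a row, and the Ung probe lay within 0.08 of their median on every array. Such probes were bright, with a median log2 intensity of 13.45 for the 49 together against 6.46 for all probes and 13.52 for the Ung probe. At 24 h the 48 had a median change of -1.12, and 48 of 48 were called lower. At 42 h the median was -0.83 with 47 of 48 called lower. Profiles were also compared with those of genes well above background in Cy5 on all 16 arrays. The 3 nearest to the Ung probe were Eya1, Ephb3 and Sgsh, and the probe of each holds such a repeat. Their root mean square differences were 0.029, 0.036 and 0.044 over 16 arrays. How much of the signal comes from Ung RNA was not tested, and the result is given as that of the probe throughout. With arrays centred on their median in place of loess, the probe was 0.65 higher at 6 h (limma adjusted p = 0.0132) and showed no call at 24 h, at 0.05 (adjusted p = 0.867).

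**Figure D2:**
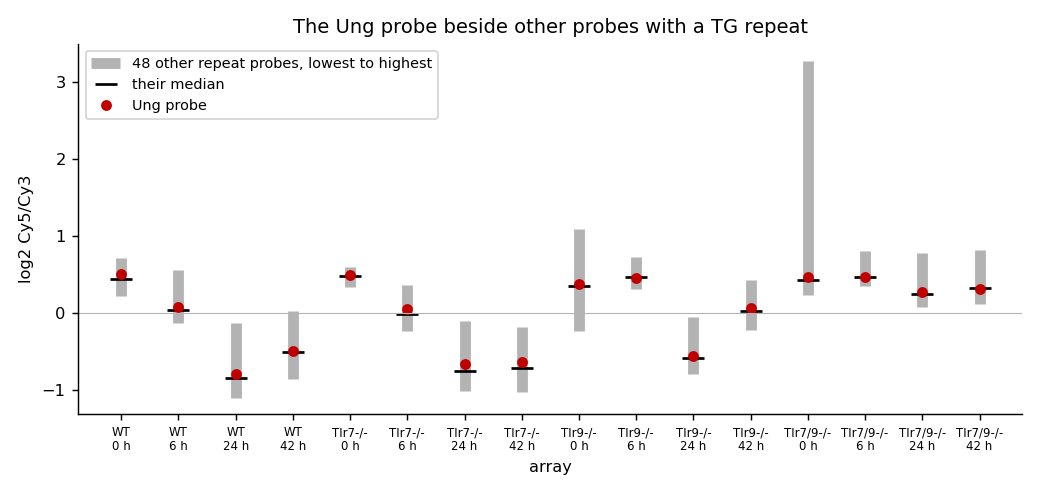
Log2 Cy5/Cy3 (vertical axis) of the Ung probe (circles) on each of 16 arrays (horizontal axis) beside the other 48 probes with 10 or more TG units in a row; bars run from the lowest to the highest of the 48 and dashes mark their median. The circles follow the dashes on all arrays, within 0.08.

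Apex1 had the largest change of the 5 at 6 h. It stood at -0.30 in WT at 0 h and at 2.47, 1.94 and 1.56 at 6, 24 and 42 h. In Tlr7-/- the values were -0.05, 2.40, 1.82 and 1.64, and in Tlr9-/- 0.01, 2.32, 1.82 and 1.58. The double knockout had 0.06, 2.21, 1.42 and 1.58. The 4 stimulated arrays at each time lay above all 4 arrays at 0 h, with no overlap, and the peak was at 6 h in every genotype. Apex1 rose by 2.51 ± 0.10 (SE), or 5.68-fold, at 6 h (limma adjusted p = 2.27e-07), and by 3.42 with median centring. The rise was 1.97 ± 0.10 at 24 h (adjusted p = 1.2e-06; 3.03 with median centring) and 1.71 ± 0.10 at 42 h (adjusted p = 6.25e-06). Between 6 and 24 h it fell by 0.54 ± 0.10 (adjusted p = 0.00414), a call that was lost with median centring, at -0.39 (adjusted p = 0.211), with Feature Extraction's own signals, at -0.46 (adjusted p = 0.054), and without Tlr7-/-, at -0.52 (adjusted p = 0.0835).

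Apex2, the less active relative of Apex1, was not called in any comparison, though some alternatives called it at 24 and 42 h. It stood at 0.02, -0.01, 0.19 and 0.44 in WT. In Tlr7-/- it stood at -0.18, 0.06, 0.24 and 0.38, and in the double knockout at -0.03, -0.07, 0.04 and 0.44. In Tlr9-/- the values were 0.14, 0.17, 0.25 and 0.13. At 24 h the difference from 0 h was 0.23 (95% interval -0.03 to 0.50, limma adjusted p = 0.139). At 42 h it was 0.32 (0.06 to 0.59, adjusted p = 0.0599), and the 42 h and 0 h arrays overlapped through Tlr9-/-. Without Tlr9-/- the 42 h difference was 0.49 and was called (adjusted p = 0.00567), and at 24 h it was 0.30 (adjusted p = 0.0441). Median centring also called it at 24 h (0.53, adjusted p = 0.0193). At 42 h it was called with all 4 genotypes in the fit (0.36, adjusted p = 0.0121), with slide as the block (0.32, adjusted p = 0.0438) and with Cy5 required above background on every array (0.32, adjusted p = 0.045). The root mean square difference over the 16 arrays was 0.87 between Apex2 and Apex1, and 0.34 between Apex2 and Msh6. The profiles were not scaled, and Apex2 varied little (SD 0.18, against 0.94 for Apex1 and 0.47 for Msh6). These differences thus largely follow how widely the other gene varied and cannot rank likeness of shape.

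Msh6 was close to its 0 h level at 6 h and higher at 24 h. In WT it stood at 0.03, 0.00, 1.07 and 1.09, and in Tlr7-/- at 0.06, 0.01, 0.98 and 1.04. In Tlr9-/- it stood at -0.01, -0.02 and 0.92 and returned to 0.23 at 42 h. The double knockout had -0.05, 0.13, 0.11 and 0.49. Msh6 differed by -0.03 (95% interval -0.40 to 0.34) at 6 h and rose by 0.97 ± 0.16 (SE), or 1.95-fold, at 24 h (limma adjusted p = 0.000979). At 42 h it was 0.76 ± 0.16 higher than at 0 h (adjusted p = 0.00576). That call at 42 h was lost without WT (0.61, adjusted p = 0.106) and without Tlr7-/- (0.65, adjusted p = 0.11). Median centring put the 6 h difference at 0.71 (adjusted p = 0.0302) and the 24 h difference at 1.93 (adjusted p = 8.15e-05).

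Exo1 had the widest range of the 5, from -0.24 to 4.11. In WT it stood at 0.29, 0.89, 3.91 and 3.50, and in Tlr7-/- at 0.00, 1, 3.72 and 3.56. In Tlr9-/- it was -0.24, 0.67, 4.11 and 2.18, and in the double knockout 0.18, 0.80, 1.61 and 3.25. At 24 h the 3 genotypes with at least 1 of the receptors lay together and far above the double knockout, and at 42 h Tlr9-/- was the lowest. Exo1 rose by 3.90 ± 0.27 (SE), or 14.9-fold, at 24 h (limma adjusted p = 4.76e-06) and was 3.06 ± 0.27 higher at 42 h (adjusted p = 4.1e-05). The rise of 0.84 ± 0.27 at 6 h (adjusted p = 0.0315) was not called without WT (0.96, adjusted p = 0.11) or without Tlr7-/- (0.76, adjusted p = 0.142). Between 24 and 42 h the difference was -0.84 (95% interval -1.45 to -0.22, adjusted p = 0.112). Median centring put the differences from 0 h at 1.24, 4.69 and 3.32 at 6, 24 and 42 h, all called, and called the fall from 24 to 42 h (-1.37, adjusted p = 0.0121).

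**Figure D3:**
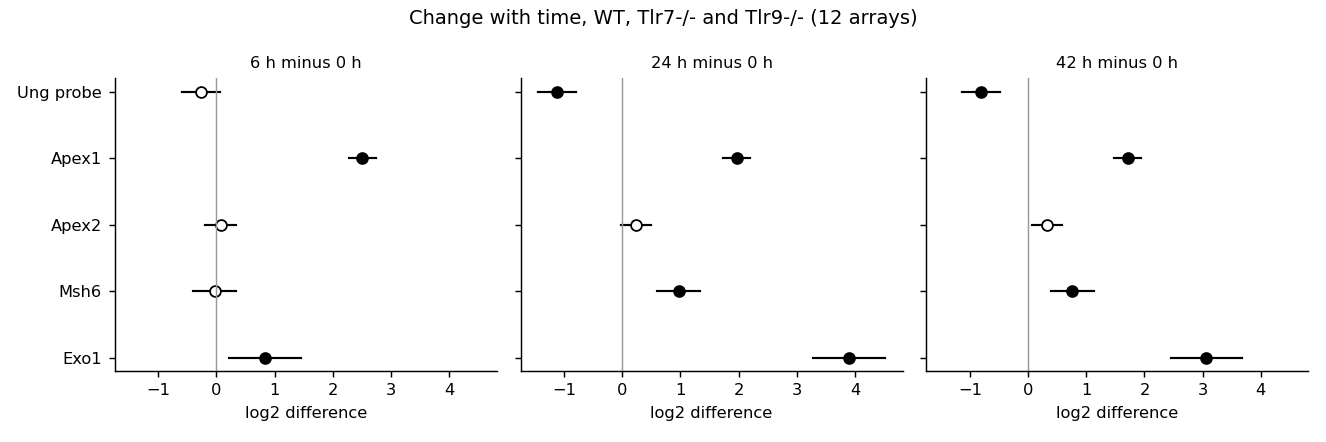
Log2 differences from 0 h (horizontal axes) of the 5 genes at 6, 24 and 42 h over WT, Tlr7-/- and Tlr9-/-, with bars for 95% intervals and filled circles where limma's adjusted p was under 0.05. Apex1 is at 2.51 already at 6 h, while Exo1 reaches 3.90 and Msh6 0.97 at 24 h.

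The genotypes were first compared over the 3 stimulated times together, with time as a term, to ask whether loss of a receptor moved these genes. Times stand in for replicates in these fits, so the errors include how far the differences between genotypes changed over time. A difference present at a single time can thus go uncalled. None of the 5 was called in the 4 comparisons made this way. Between the double knockout and the other 3 genotypes limma called 0% of all probes, with 17.8% at an unadjusted p under 0.05 and 2 of the 5 genes among them. The differences were 0.64 (95% interval 0.29 to 0.98) for the Ung probe, -0.21 (-0.39 to -0.03) for Apex1 and -0.07 (-0.26 to 0.12) for Apex2. For Msh6 the difference was -0.35 (-0.77 to 0.08) and for Exo1 -0.73 (-1.63 to 0.17). At the 3 times in turn the Exo1 difference was -0.05, -2.3 and 0.17, and this change over time is part of its error. The 48 other repeat probes had a median of 0.66 in the same comparison. Without Tlr9-/- the Ung probe was called, at 0.77 (adjusted p = 0.00644), and without 24 h the Exo1 difference turned to 0.06.

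With median centring the share of called probes that were higher went from 31.6% of 19 to 7.27% of 55 between Tlr9-/- and WT. The median of all probes went from 0 to -0.21 in the double knockout at 24 h. In Tlr9-/- at 42 h, also described further on, it went from -0.01 to -0.14. With loess, of all probes 0.0572% were called between Tlr9-/- and WT, 0.00301% between Tlr7-/- and WT, and 0.0542% between the double knockout and Tlr9-/-. At an unadjusted p under 0.05 there were 1, 0 and 1 of the 5 genes, and 9.14, 1.93 and 6.02% of all probes. Tlr7-/- and WT, which share a slide, differed by between -0.04 and 0.02 for the 5 genes. The 95% interval of that difference was -0.27 to 0.21 for Apex1 but -1.19 to 1.18 for Exo1, which is wide enough to hide a change of more than 2-fold. A further pair of fits, over all 16 arrays, asked whether the response to PL2-3 from each genotype's own 0 h array differed. In the double knockout against the other 3, 0 of the 5 genes were called (0.0263% of probes) and 1 had an unadjusted p under 0.05 (6.18% of probes). In Tlr9-/- against WT 0 were called (1.51% of probes) and 0 had an unadjusted p under 0.05 (9.66% of probes). Here too times stand in for replicates. The Exo1 response differed by -0.89 (95% interval -2.59 to 0.81) in the double knockout and by 0.09 (-2.29 to 2.47) in Tlr9-/-. That of Msh6 differed by -0.27 (-1.03 to 0.49) and -0.29 (-1.33 to 0.74). Such intervals can hide changes of more than 2-fold.

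For Exo1 and Msh6 the gap at 24 h was wider than the mean over times. After the values had been seen, the double knockout was therefore set against the other 3 genotypes at 6, 24 and 42 h each, with the spread of those 3 pooled over the times and the lone array assumed to vary like them. At 24 h Exo1 was lower in the double knockout, by 2.30 ± 0.43 (SE) on the log2 scale or 4.94-fold (limma adjusted p = 0.0198). No other of the 5 was called, where 3.9% of all probes were. The double knockout array at 1.61 lay below 3.72, the lowest of the other 3. Msh6 differed by -0.88 (95% interval -1.44 to -0.32, adjusted p = 0.0735), Apex1 by -0.43 (-0.73 to -0.14, adjusted p = 0.0871) and Apex2 by -0.18 (-0.52 to 0.15). The Ung probe differed by 0.95 (adjusted p = 0.0503), and the 48 other repeat probes by a median of 0.96. The B cell markers were higher in the double knockout at 24 h, with 2 of 6 called and a median difference of 1.16, and the list's median was -1.50 there against -2.66 to -2.34 in the other 3 genotypes. Of the markers of other cells 0 were called. Their part in the result was not tested.

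The size of the Exo1 difference at 24 h held in every alternative, between -2.21 and -3.08, but its call did not. Median centring, Feature Extraction's signals, an offset of 0 and leaving out WT or Tlr7-/- each took the adjusted p above 0.05, to 0.0798, 0.126, 0.0512, 0.198 and 0.152. Without Tlr9-/- the Msh6 difference was -0.92, but that fit took its spread from WT and Tlr7-/- alone, both on slide 1. On slide 2, which they share, the double knockout was 2.50 below Tlr9-/- for Exo1 at 24 h. At 42 h Exo1 differed by 0.17 (95% interval -0.76 to 1.11) and Msh6 by -0.30 (-0.86 to 0.26), and 0 of the 5 were called (0.0614% of probes). These means take in the low Tlr9-/- array. Without it Msh6 was lower in the double knockout by 0.58, the Ung probe was 0.88 higher, and Exo1 differed by -0.28. The spread in that fit is again that of slide 1 only. At 6 h 0 were called (0.0936% of probes), with Exo1 at -0.05 and Apex1 at -0.18.

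Tlr9-/- stood apart at 42 h. After the values had been seen, it was set against WT and Tlr7-/- at each time in the same way, with the spread of these 2 genotypes. Both lie on slide 1, so the errors and p-values hold neither the spread between slides nor that of Tlr9-/- arrays, and describe how far this array lay from that pair. These arrays also serve in the comparisons above, so the results are not independent of them. At 42 h Exo1 was lower on the array labelled Tlr9-/-, at 2.18 against 3.50 and 3.56, by 1.35 ± 0.15 (SE) or 2.55-fold (limma adjusted p = 0.000427). Msh6 was lower as well, at 0.23 against 1.09 and 1.04, by 0.84 ± 0.11 or 1.79-fold (adjusted p = 0.000956). The Ung probe was higher by 0.62 ± 0.12 (limma adjusted p = 0.00698), a call lost with median centring (0.22, adjusted p = 0.479), and of the 48 other repeat probes 44 were called higher with a median of 0.64. Thus 3 of the 5 were called, where 15.9% of all probes were. Apex1 differed by -0.02 (95% interval -0.32 to 0.28) and Apex2 by -0.28 (-0.56 to 0.00, adjusted p = 0.173).

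At 24 h none of the 5 was called in that comparison (3.18% of probes), with Exo1 at 0.30 (95% interval -0.04 to 0.63) and Msh6 at -0.10 (-0.35 to 0.14). At 6 h 0 were called (2.82% of probes). Median centring, which moved the median of all probes to -0.44 in that comparison, called 3 of the 5 at 24 h, Msh6 at -0.97 (adjusted p = 0.00192) among them. The slide cannot be told apart from loss of Tlr9 here. On slide 2 the double knockout, which also lacks Tlr9, was 1.07 above Tlr9-/- for Exo1 and 0.26 above it for Msh6 at 42 h. The part of the slide was not tested. The red cell markers were higher on the Tlr9-/- array at 42 h too, with 2 of 4 called and a median difference of 1.11; the list's median was -2.57 there and -3.90 and -4.04 in WT and Tlr7-/-, and 3 of 4 were well above background on each of these. The B cell markers differed by a median of 0.42, with 2 of 6 called higher and 1 lower. Their part in the result was not tested.

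**Figure D4:**
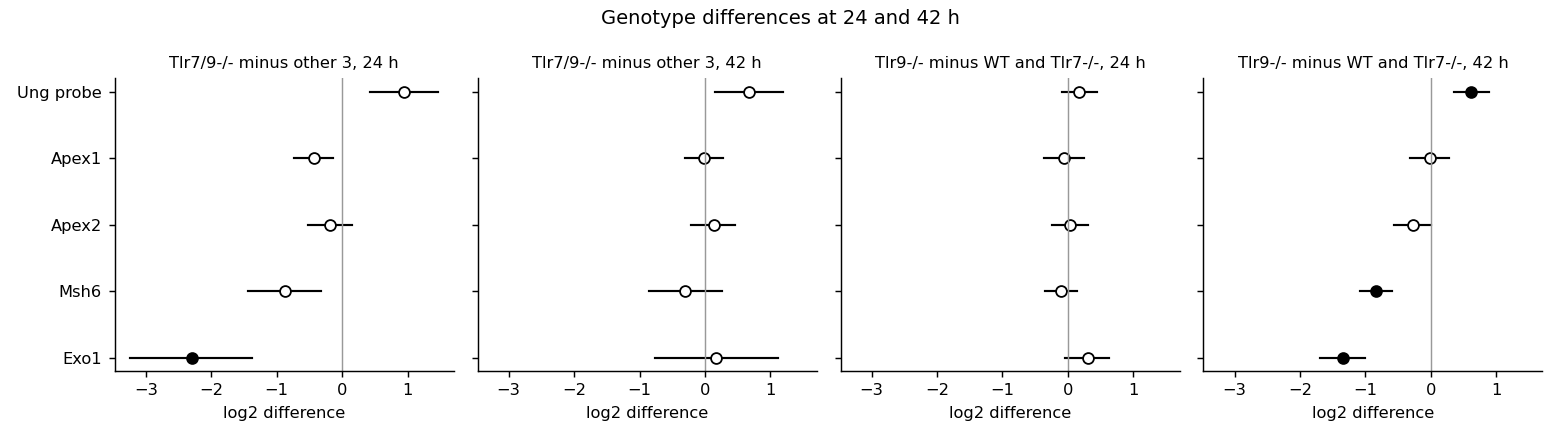
Log2 differences (horizontal axes) of the 5 genes between the double knockout and the other 3 genotypes, and between Tlr9-/- and the pair of WT and Tlr7-/-, at 24 and 42 h; bars are 95% intervals and filled circles mark a limma adjusted p under 0.05. Exo1 is lower in the double knockout at 24 h (-2.30) and in Tlr9-/- at 42 h (-1.35).

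Exo1 and Msh6 were set beside lists of genes of DNA replication and repair, which leave out the 5 genes themselves. In the replication list, 26 of 30 genes rose at 24 h and 0 fell, with a median difference of 2.06 against 0.01 for all probes, of which 46.5% were called. Uhrf1, which recruits the maintenance methyltransferase to new DNA, rose by 4.44 ± 0.34 (SE, limma adjusted p = 8.06e-06), and Rrm2, a subunit of ribonucleotide reductase, by 4.07 ± 0.55 (adjusted p = 0.00024). The list's median on single arrays was 1.96, 1.87 and 2.28 at 24 h in WT, Tlr7-/- and Tlr9-/- and 0.82 in the double knockout. At 42 h it was 2, 2.23 and 1.68 in WT, Tlr7-/- and the double knockout and 1.08 in Tlr9-/-. The arrays with low Exo1 were thus also those with a low replication median at these times. In Tlr9-/- at 42 h 23 of 30 replication genes were lower and 0 higher (median -1.05; 15.9% of all probes were called), Uhrf1 by 1.51 ± 0.15 (adjusted p = 0.000222) among them. In the double knockout at 24 h, where 3.9% of all probes were called, 5 were lower and 0 higher, with a median of -1.23, and Uhrf1 (-1.72, adjusted p = 0.0602) and Rrm2 (-2.55, adjusted p = 0.077) were not called.

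**Figure D5:**
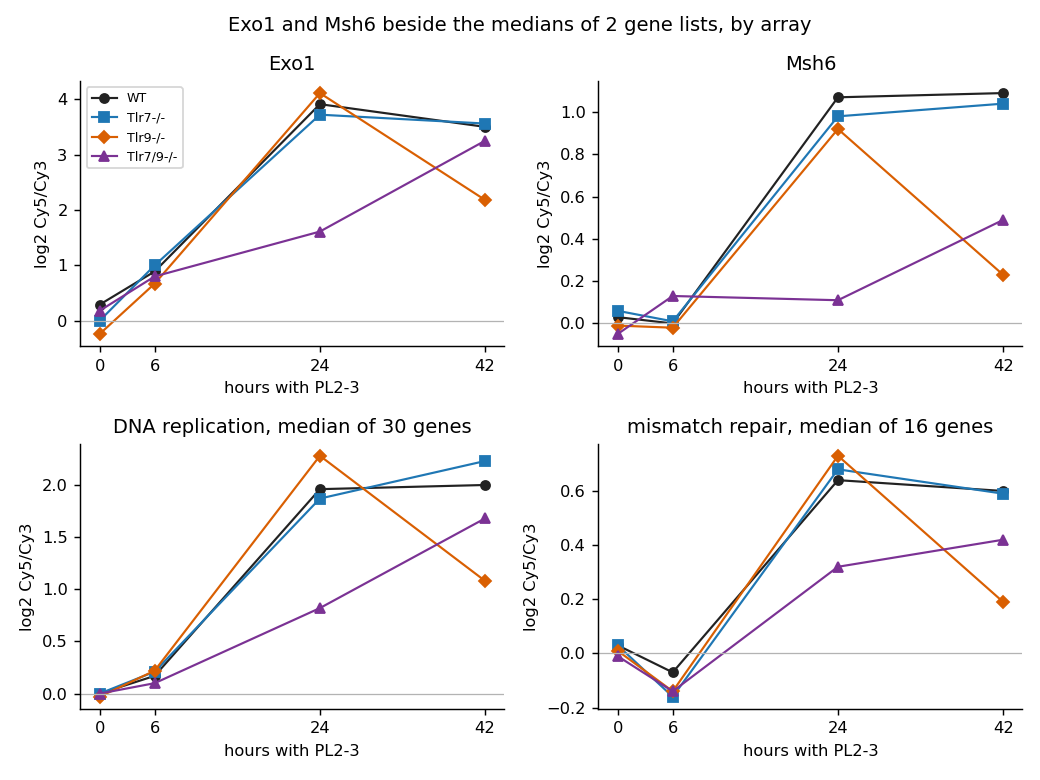
Log2 Cy5/Cy3 (vertical axes, with a scale of their own in each panel) of Exo1 and Msh6, and the median log2 Cy5/Cy3 of 30 replication genes and of 16 mismatch repair genes, against hours with PL2-3; each point is 1 array and each line 1 genotype. At 24 h the double knockout is lowest in all 4 panels, and at 42 h Tlr9-/- is.

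The next list joins mismatch repair with its polymerase machinery. Of its genes, 9 of 16 rose at 24 h and 0 fell (median 0.60), as against 3 higher and 5 lower at 6 h. The number called is to be read beside the 46.5 and 45.3% of all probes called at these times, here and for the lists that follow. The replication clamp loader subunit Rfc4 rose by 2.38 ± 0.24 (SE, limma adjusted p = 4.13e-05) and the DNA ligase Lig1 by 2.26 ± 0.34 (adjusted p = 0.000463). In Tlr9-/- at 42 h 10 of 16 genes of the list were lower and 0 higher (median -0.67; 15.9% of all probes were called), and in the double knockout at 24 h 0 of 16 were called (median -0.65; 3.9% of all probes).

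Base excision repair moved both ways, with 8 of 16 tested genes higher and 4 lower at 24 h (median 0.20; 17 were listed). Dut, the dUTPase that keeps uracil out of new DNA, rose by 2.65 ± 0.35 (SE, limma adjusted p = 0.000196), and the flap endonuclease Fen1 by 1.87 ± 0.19 (adjusted p = 4.13e-05). Mbd4, a glycosylase of mismatched uracil and thymine, fell by 2.50 ± 0.24 at 6 h (adjusted p = 1.97e-05) and by 1.41 ± 0.24 at 24 h (adjusted p = 0.000857). Apex1, with its peak at 6 h, therefore rose while Mbd4 was at its lowest.

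For end joining and the response to breaks, 10 of 21 genes were higher and 4 lower at 24 h (median 0.25). Nbn, of the complex that senses breaks, rose by 1.96 ± 0.13 (SE) at 6 h and by 1.71 ± 0.13 at 24 h (limma adjusted p = 7.24e-06). Mad2l2, a subunit of shieldin and of polymerase zeta, rose by 1.88 ± 0.12 and 1.57 ± 0.12 (adjusted p = 6.85e-06 at 24 h). The polymerase Polm fell by 0.91 ± 0.17 at 24 h (adjusted p = 0.00166), and Mdc1, a mediator at phosphorylated H2AX, by 0.75 ± 0.14 (adjusted p = 0.00196). Among 9 translesion synthesis genes, 4 were higher and 2 lower (median 0.30). The polymerase Polq rose by 1.53 ± 0.29 (adjusted p = 0.00199) and the ubiquitin conjugase Ube2a by 1.45 ± 0.13 (adjusted p = 2.11e-05), while its paralogue Ube2b fell by 0.74 ± 0.11 (adjusted p = 0.000446) and Rev3l, the catalytic subunit of polymerase zeta, by 0.52 ± 0.12 (adjusted p = 0.00436).

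Profiles were compared with 8412 gene names, all well above background in Cy5 on all 16 arrays. Genes that were dimmer on some arrays could thus not be neighbours. The profiles were not scaled, so the ranking also follows how widely each gene varied. Fignl1 and Cdca5 were among the 3 nearest to Exo1. Their root mean square differences were 0.27 and 0.339 (log2) beside an SD of 1.59 for Exo1 itself. Nearest to Msh6 were Topbp1 (0.099), Mrpl18 (0.104) and Minos1 (0.14), beside an SD of 0.47. Nearest to Apex1 were Pabpc4 (0.118), Gar1 (0.16) and Ppa1 (0.162), beside an SD of 0.94. Dera, Alad and Tubgcp4 were nearest to Apex2, at 0.11 to 0.128, but Apex2 itself varied with an SD of only 0.18.

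RefSeq's promoter table (GRCm38.p6, 300 bases from 250 before to 50 after each start) matched 3 of the 5 genes, Ung, Apex1 and Msh6. The bases before the start are shown for the latter pair, because they rose at different times.
Apex1 (chr14:50924699-50924948, plus strand): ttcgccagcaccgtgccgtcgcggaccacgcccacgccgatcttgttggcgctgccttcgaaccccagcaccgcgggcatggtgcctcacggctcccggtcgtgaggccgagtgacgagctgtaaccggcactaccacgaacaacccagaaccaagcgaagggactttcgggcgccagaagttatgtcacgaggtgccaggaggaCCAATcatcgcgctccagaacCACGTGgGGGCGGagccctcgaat
Msh6 (chr17:87974800-87975049, plus strand): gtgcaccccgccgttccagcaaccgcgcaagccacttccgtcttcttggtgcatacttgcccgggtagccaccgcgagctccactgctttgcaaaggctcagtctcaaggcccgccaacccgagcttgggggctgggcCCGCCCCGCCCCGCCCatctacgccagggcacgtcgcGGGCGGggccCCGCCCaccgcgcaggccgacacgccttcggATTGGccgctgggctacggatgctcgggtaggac
Capitals mark matches, on either strand, to the E-box CACGTG, the CCAAT box CCAAT, the GC box GGGCGG or the E2F motifs TTTCGCGC and TTTGGCGC. In the full 300 bases Apex1 held 3 E-boxes, 2 CCAAT boxes and 1 GC box, and Msh6 held 5 GC boxes, some of which abut or overlap, and 1 CCAAT box. Ung held 2 GC boxes. No E2F motif of these letters was in the 3 windows. Of 32851 promoters in the table, 7.15% held at least 1 E-box, 37.4% a CCAAT box, 35.7% a GC box, and 0.323 and 0.514% the E2F motifs. A match describes letters in the window and not a bound site.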

How the data were processed

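Spots were quantified in 2 colours by Agilent Feature Extraction 10.1.1.1, per the file headers. The deposited intensity used here is the uncorrected mean of a spot and the median of its local background. The authors' series table gives log10 ratios that equal those of the processed signals within 5e-04 on every array, and was used as an alternative. Deposited coordinates are on mm9.

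Intensities were corrected with normexp (offset 50) and loess in limma 3.58.1 (R 4.3.3), with control spots at weight 0 and outlier-flagged spots left out. Log2 ratios of Cy5 to Cy3 were averaged over spots of a probe. Probes had to be well above background in a colour on 3 or more of a fit's arrays and were tested with lmFit and eBayes and adjusted by Benjamini-Hochberg at 0.05. The fit was checked on simulated data. The 5 genes and the gene lists were chosen with earlier results of these data known. A list gene was read on its brightest probe, and up to 2 rises and 2 falls per list, those with the widest change at 24 h, were named; some items are not reported here. Alternatives covered normalization, offset, filters, brightness trend, slide and each genotype or time left out.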

Additional observations from a re-analysis of the deposited data

How the results depend on the processing

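No paired analysis was possible because each genotype and time has 1 array and so no replicate numbers to pair by; genotype is itself a term in the fits over time, which sets each genotype's arrays against its own 0 h array. Over the 5 genes, 880 of 970 alternative values kept their direction and their side of the threshold, 21 lost a call, 20 gained one and 49 changed sign. Causes were not tested. Most main results were not called, so most of the 880 only stayed uncalled with the same sign. Feature Extraction's signals and the series table are nearly equal but count separately. The total is thus no measure of how stable the calls are. Every call at 24 h against 0 h held in the alternatives other than that of the Ung probe under median centring. The calls at 42 h for Exo1 and Msh6 in Tlr9-/- held in all 8 alternatives run, all of which use the spread of slide 1 only; that of the Ung probe was lost with median centring. For these comparisons at single times with Tlr9-/-, leaving out WT or Tlr7-/- could not be fitted, since no spread is left. With 1 array for each genotype and time, the number of arrays limits the precision.

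Median centring called 4 genes at 6 h, 3 from 24 to 42 h, 3 in Tlr9-/- at 24 h and 0 in the double knockout at 24 h. It turned the Ung probe to 0.65 at 6 h, 0.05 at 24 h, -0.39 from 24 to 42 h, -0.20 between Tlr9-/- and WT, -0.10 in the double knockout at 6 h, and -0.08 at 6 h and -0.70 at 24 h in Tlr9-/-. It turned Msh6 to 0.71 at 6 h and to -0.21 in the double knockout at 6 h. It turned Apex2 to -0.16 from 24 to 42 h, and to -0.06 at 6 h and -0.41 at 24 h in Tlr9-/-. Exo1 went to -0.41 in Tlr9-/- at 24 h and to -0.23 for the response of Tlr9-/- against WT, and Apex1 to 0.0012 between Tlr7-/- and WT. With Feature Extraction's signals, and with the authors' series table, 0 genes were called in the double knockout at 24 h. These settings turned the Ung probe to 0.01 and Apex2 to -0.06 and -0.07 between Tlr7-/- and WT. They turned Apex2 to 0.06 and Exo1 to -0.11 in the responses of the double knockout and of Tlr9-/-, and Apex1 to 0.01 in the double knockout at 42 h. In Tlr9-/- they turned Msh6 to 0.04 at 6 h and Apex1 to 0.06 and 0.05 at 42 h. An offset of 0 called 0 genes in the double knockout at 24 h and turned Apex2 to -0.02 between Tlr7-/- and WT. Requiring Cy5 above background on every array kept the Ung probe at 0.95 and Msh6 at -0.88 in the double knockout at 24 h. Both gained a call there, and the share of all probes called with that setting is not given. A trend with brightness called 1 gene at 6 h, as did all 4 genotypes, which put Msh6 at 0.02 there.

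Leaving out each genotype or time in turn, the genes called ranged from 1 to 3 at 6 h and 2 to 5 at 42 h. All probes called ranged from 9986 to 16116 and from 5295 to 13226 in these fits, of 29171 to 31260 tested. In the double knockout the genes called ranged from 0 to 1 over the stimulated times, and all probes called from 0 to 3706. At single times leaving out Tlr9-/- left only the spread of slide 1, so a range of counts is not given there. Apex2 ranged from -0.0046 to 0.13 at 6 h, -0.13 to 0.12 between Tlr9-/- and WT, -0.01 to 0.07 between Tlr7-/- and WT, -0.22 to 0.05 between the double knockout and Tlr9-/-, and -0.14 to 0.02 in the double knockout's response. Exo1 ranged from -1.18 to 0.06 between the double knockout and the other 3 (-0.14 to 0.02 at 6 h, -0.28 to 0.42 at 42 h), -1.19 to 0.60 against Tlr9-/-, -0.06 to 0.09 between Tlr7-/- and WT, and -0.23 to 0.53 in the response of Tlr9-/-. Msh6 ranged from -0.34 to 0.04 from 24 to 42 h and -0.33 to 0.20 between the double knockout and Tlr9-/-. Between Tlr7-/- and WT the Ung probe ranged from -0.08 to 0.05 and Apex1 from -0.09 to 0.01, and Apex1 from -0.03 to 0.01 in the double knockout at 42 h.

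The number of all probes called ranged, in the same way, from 5295 to 13226 at 42 h, 3613 to 11296 from 6 to 24 h, 0 to 7091 from 24 to 42 h, 0 to 3706 for the double knockout, 8 to 23 for Tlr9-/- against WT, 9 to 11 for the double knockout against Tlr9-/-, and 4 to 5 and 0 to 0 for the 2 responses. From 24 to 42 h (1646 probes) median centring called 6124. The count was 3 with Feature Extraction's signals or the series table, 424 with an offset of 0 and 0 with all 4 genotypes. With slide as a term 15 were called for the double knockout, in place of 0. For Tlr9-/- against WT (19) the counts were 55 with median centring, 12 with Feature Extraction's signals, the series table or the brightest probe of each gene, and 0 with Cy5 required on every array. For Tlr7-/- against WT (1) they were 2 with an offset of 0, no filter or the trend, and 15 within slide 1. For the double knockout against Tlr9-/- (18) they were 3 with Cy5 required, 10 with the brightest probe and 9 within slide 2. For its response (9) they were 3 with median centring and 22 with an offset of 0. For the response of Tlr9-/- (515) they were 0 with median centring, Feature Extraction's signals or the series table, 8 with an offset of 0, 2296 with no filter, 1 with Cy5 required and 329 with the brightest probe.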
